A study of Flaveria robusta and Flaveria sonorensis and Flaveria ramosissima with 24 samples.

Results

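Flaveria trinervia is a C4 plant of the daisy family. Its leaf transcriptome was examined after 2 weeks at low CO2 against control air, which asks how a plant with a complete C4 cycle responds when less CO2 is supplied. The genes described are the 13873 of 29562 rows of the deposited table whose abundance, in TPM (transcripts relative to the whole library, corrected for length), averaged 1 or more over the 6 F. trinervia libraries. The lowest mean that was kept was 1.00 TPM and the highest that was left out was 0.998 TPM. Of the 15689 rows left out, 10804 were listed at 0 in all 6 libraries.

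The 3 low CO2 libraries came from plants at a CO2 setting of 100 and the 3 control libraries from plants at a setting of 380. The labels write both settings in µmol m-2 s-1, a unit of light flux, and how it reads for CO2 could not be settled. Both groups grew at 22 °C and 70% humidity under 200 µmol m-2 s-1 of light, in days of 16 h light to 8 h dark, and RNA was taken from newly expanded mature leaves. For seed source, plant age, dates and chambers nothing is stated in the labels, so an effect of a chamber and of the CO2 setting cannot be told apart. Nor do they say whether the libraries of a group came from separate plants, and p-values measure only the spread between these libraries, which may be technical. The same treatment was given to 3 other species, used here for comparison: F. robusta, a C3 species, and the C3-C4 intermediates F. sonorensis and F. ramosissima.

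In C4 leaves of this genus, CO2 is first fixed in mesophyll cells by phosphoenolpyruvate carboxylase, and the resulting C4 acid is carried to the bundle sheath. There it is decarboxylated, mainly by NADP-malic enzyme, which raises CO2 around Rubisco and suppresses photorespiration. C3 leaves have no such pump, and low CO2 increases their photorespiration. The deposited table identifies genes by number and does not pair the numbers with names, so which numbers stand for these enzymes is not known and the leaf label could not be checked against marker genes. In bulk leaf samples fewer cells of a type and less RNA per cell cannot be told apart.

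The libraries were compared before the genes. TPM keeps no read depth, which is therefore unknown, and the values of each library added up to between 900289 and 930239 over all rows. This is below the 1000000 that TPM adds up to by definition, and what is missing was not stated. The lowest sum was that of low CO2 replicate 2, and all others were 918752 or more. Low CO2 replicates 1 and 3 resembled each other, with a Spearman correlation of 0.963 over the genes tested. In contrast, low CO2 replicate 2 stood apart, with correlations of 0.888 and 0.903 to low CO2 replicates 1 and 3 and of 0.909 to 0.940 to the controls. Among the controls these correlations were 0.951 to 0.978. Low CO2 replicate 2 was at least 2-fold above all 5 other libraries in 104 genes and at least 2-fold below them in 82. Low CO2 replicate 3 was 2-fold above in 17 and below in 156, and low CO2 replicate 1 in 8 and 48, while the controls had 17 to 29 above and 8 to 9 below. Rows at 0 in the F. trinervia controls but at a mean of 10 TPM or more in another species numbered 455 to 1378. They added up to at most 8.92 TPM in any low CO2 library. How species share a row was not given. Whether these rows could hold reads of another species is thus unknown, and they do not check the species label. The median SD of log2(TPM + 1) between libraries was 0.31 at low CO2 and 0.21 in the control, and 0.16 between low CO2 replicates 1 and 3. Results are therefore given with all 6 libraries and without low CO2 replicate 2.

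Most of the genes that responded to low CO2 in F. trinervia leaves were lower. Of the 13873 genes, 220 (1.59%) were called, which means an adjusted p below 0.05 in limma on log2(TPM + 1). Of these, 25 (0.18%) were higher at low CO2 and 195 (1.41%) were lower. All 220 differed by at least 2-fold on this scale, and in all 220 the 3 low CO2 values, replicate 2 included, lay apart from the 3 controls. The median log2 fold change was 1.47 in the 25 higher genes (range 1.12 to 3.29) and -2.01 in the 195 lower genes (range -6.01 to -1.005). An unadjusted p below 0.05 was found for 2376 genes. Without any test, all 3 low CO2 libraries lay above all 3 controls in 930 genes (6.7%) and below them in 2029 genes (14.6%).

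How many calls went each way moved with the scaling. The median log2 fold change over all genes tested was -0.12 in deposited TPM, and it was -0.22 without low CO2 replicate 2. Against the control mean, the median gene differed by -0.19, 0.07 and -0.23 (log2) in low CO2 replicates 1, 2 and 3. Median-of-ratios scaling, which sets the typical gene to no change, gave 33 higher and 155 lower calls, and quantile normalization gave 39 and 125. Lower calls were the majority under each scaling. The 100 most abundant genes held 53.7%, 47.5% and 56.9% of TPM in low CO2 replicates 1, 2 and 3, against 47.0%, 45.1% and 50.3% in the controls. Their mean share was 52.7% ± 4.75 at low CO2 and 47.5% ± 2.63 in the control (SD, n = 3 each; two-sided exact permutation p = 0.2, where 0.1 is the smallest possible), and the groups overlapped.

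Single libraries weighed heavily on the number of calls. Leaving out low CO2 replicate 1, 2 or 3 gave 100, 2136 and 41 calls. Leaving out control replicate 1 or 3 gave 16 and 45, and without control replicate 2, 39 genes were called higher in place of 25.

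The largest rise among the called genes was in Gene08759. It had 22.9, 27.6 and 53.9 TPM in the low CO2 libraries, against 1.16, 5.14 and 2.04 TPM in the controls. Every low CO2 value was several times the highest control, and low CO2 replicate 2 lay among its group. On the log2 scale the rise was 3.29 ± 0.45 (SE), with a limma adjusted p of 0.0215. The call was kept in 11 of 15 alternatives, with adjusted p up to 0.116, and was lost with the replicate block and without low CO2 replicate 3, control replicate 1 or control replicate 3.

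Gene11101 was close to absent in the control. It had 6.45, 5.35 and 3.79 TPM at low CO2, against 0, 0.31 and 0 TPM in the control. The low CO2 libraries lay close together, well above the single control with a value. The log2 fold change on the log2(TPM + 1) scale was 2.48 ± 0.24 (SE; limma adjusted p = 0.00615), and the call was lost with the replicate block and without control replicate 1. The gene was listed at 0 in every library of F. robusta, F. sonorensis and F. ramosissima.

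The next rises included well expressed genes. The third gene by size of rise had 94.3, 87.8 and 90.7 TPM at low CO2, against 14.3, 15.0 and 25.2 TPM in the control (a log2 rise of 2.31 ± 0.24, SE, with a limma adjusted p of 0.00794). Relative to its mean this was the tightest low CO2 group among the 10 largest rises, at 90.9 ± 3.26 TPM (SD, n = 3). The fifth had 581, 453 and 863 TPM at low CO2, against 193, 131 and 202 TPM in the control, and was at 0 in all libraries of the other 3 species. The eighth, the most abundant gene that was called higher, had 969, 1570 and 1500.1 TPM at low CO2, against 442, 495 and 386 TPM in the control. For this gene low CO2 replicate 2 was the highest library of all. Over the 10 largest rises the log2 fold change was 1.53 to 3.29 with all 6 libraries and 1.457 to 3.401 without low CO2 replicate 2.

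The largest fall was in Gene24378, which almost disappeared. It had 3.25, 7.93 and 4.54 TPM in the low CO2 libraries, against 361, 392 and 394 TPM in the controls. Even the highest low CO2 library, replicate 2, was far below the lowest control. In limma the log2 fold change was -6.01 ± 0.28 (SE) with an adjusted p of 0.000669, and the gene was called in 15 of 15 alternatives, with log2 fold changes of -6.30 to -5.77.

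Gene07148 followed. Its abundance was 0.56, 7.29 and 1.37 TPM at low CO2, against 190, 223 and 151 TPM in the control. Again low CO2 replicate 2 was the highest of its group, and again the groups lay far apart. In limma the log2 fold change was -5.90 ± 0.56 (SE) and the adjusted p 0.00615. The call was kept in 14 of 15 alternatives and missed the threshold without control replicate 1 (limma adjusted p = 0.0527).

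The third largest fall had 1.61, 6.86 and 2.35 TPM at low CO2, against 220, 232 and 227 TPM in the control. In this gene the controls were alike to within a few percent (226 ± 6.36 TPM, SD, n = 3). The sixth had 0.22, 9.54 and 0.36 TPM at low CO2, against 54.3, 69.3 and 69.0 TPM in the control, so that low CO2 replicate 2 kept a low but clear signal where replicates 1 and 3 had almost none. The seventh had 22.0, 70.5 and 7.94 TPM at low CO2, against 552, 634 and 632 TPM in the control. In 9 of the 10 largest falls low CO2 replicate 2 was the highest of the low CO2 libraries. Of the 195 lower genes it was the highest in 143 (73.3%), low CO2 replicate 1 in 29 and low CO2 replicate 3 in 19. Over all genes tested it was the highest of the low CO2 libraries in 63.0%.

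**Figure D1:**
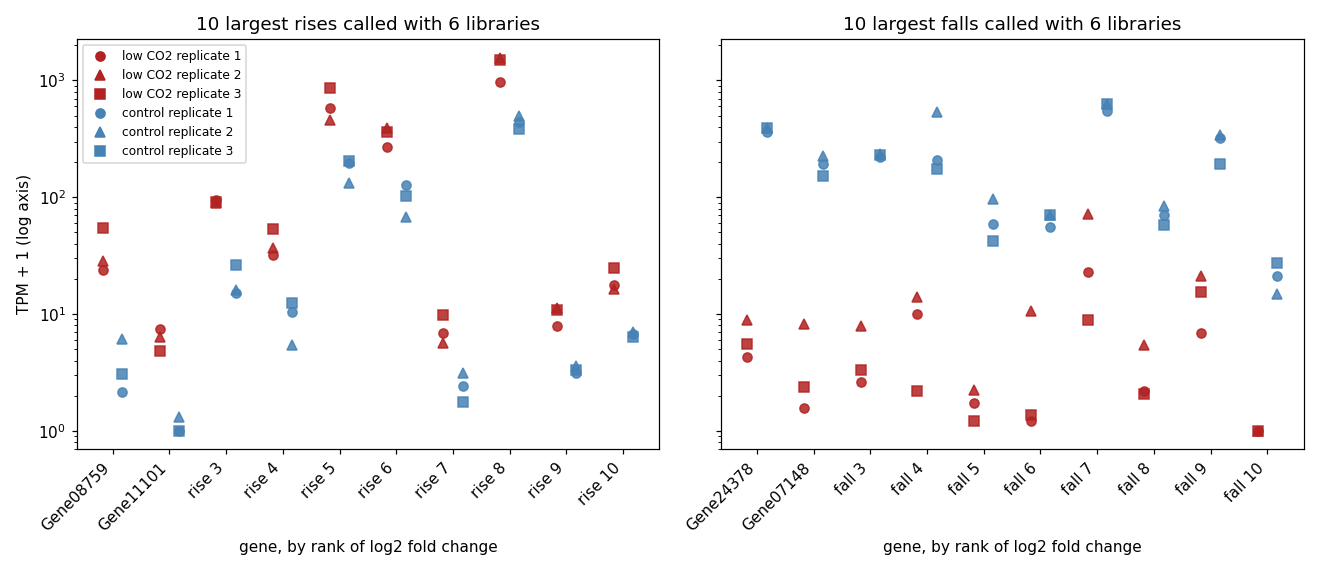
TPM + 1 (vertical log axis) of the 10 genes with the largest rise (left panel) and the 10 with the largest fall (right panel) among the 220 called genes, 1 point per library, with low CO2 libraries in red to the left of the controls in blue and the replicate number given by the symbol. In every gene the groups lie apart, and in 9 of the 10 falls the red triangle of low CO2 replicate 2 is the highest of the red points.

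The tenth fall was listed at 0 in all 3 low CO2 libraries, against 20.2, 13.7 and 26.1 TPM in the control. Among the 13873 genes tested, it was one of 4 listed at 0 in all low CO2 libraries with at least 1 TPM in all controls. Of these 4, 3 were called. The other called ones had 14.2, 17.8 and 7.73 TPM and 1.36, 3.13 and 1.55 TPM in the controls. No tested gene at 0 in all 3 controls reached 1 TPM in all low CO2 libraries. Rows with a mean below 1 TPM were left out before both counts, which could miss weakly expressed genes of either kind.

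Calls were spread over the whole range of abundance. Of 7547 genes with a mean of 1 to 10 TPM, 16 were higher and 95 lower. From 10 to 100 TPM the numbers were 6 and 83 of 5323, and from 100 to 1000 TPM they were 3 and 15 of 867. The share called ran from 1.47% to 2.08% over the classes, close to the 1.59% of all genes. Of the 136 genes with a mean of 1000 TPM or more, 2 were called, both lower, and these are described although the rule for single genes did not name them. The first had 828, 1640 and 393 TPM at low CO2, against 7135, 7986 and 4563 TPM in the control (-2.97 ± 0.49 on the log2 scale, SE, with a limma adjusted p of 0.0357). The second had 550, 882 and 562 TPM at low CO2, against 2030, 2381 and 2392 TPM in the control (-1.80 ± 0.22 on the log2 scale, SE, with a limma adjusted p of 0.0152). In both, low CO2 replicate 2 had the highest value of its group.

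**Figure D2:**
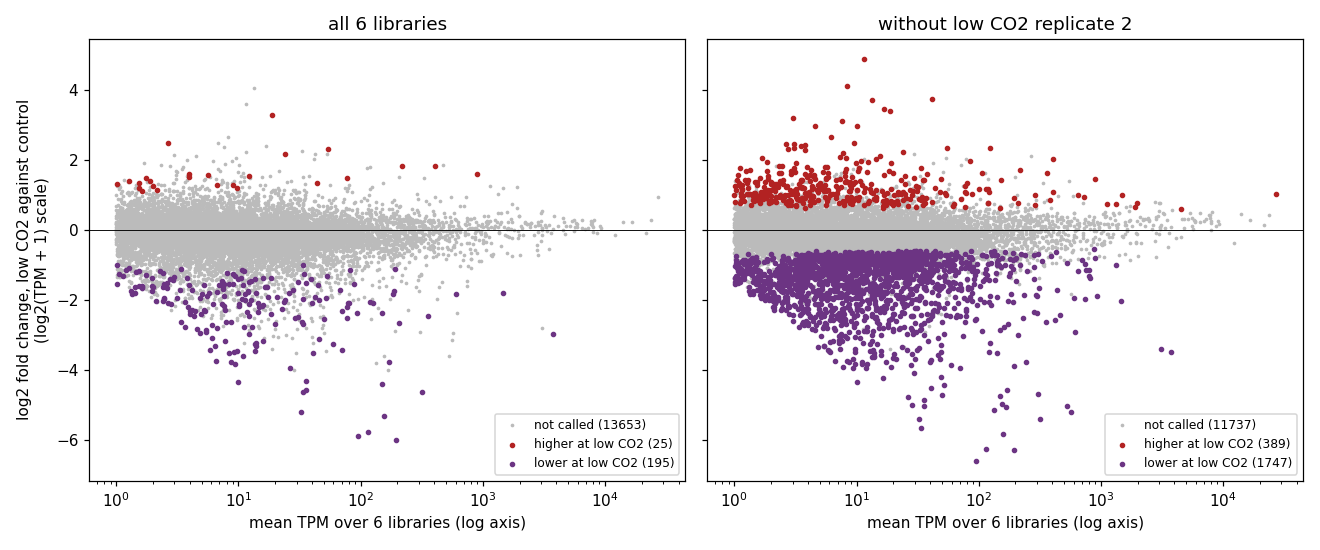
Log2 fold change of low CO2 against control on the log2(TPM + 1) scale (vertical axis) against mean TPM over the 6 libraries (horizontal log axis) for the 13873 genes, with all 6 libraries (left) and without low CO2 replicate 2 (right). Genes called higher are red (25 left, 389 right), genes called lower purple (195 left, 1747 right) and the others grey, and lower calls outnumber higher ones in both panels.

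Of the 10 most abundant genes, 0 were called by limma with all 6 libraries, and 1 had an unadjusted p below 0.05. The most abundant gene had 30396, 31321 and 46288 TPM in the low CO2 libraries, against 17175, 21858 and 16818 TPM in the controls. Its groups did not overlap, and low CO2 replicate 2 was close to replicate 1. By limma it was higher by 0.93 ± 0.21 (log2, SE, adjusted p = 0.0783) with all 6 libraries and 1.02 ± 0.22 (limma adjusted p = 0.0244) without low CO2 replicate 2. For the other 9 the log2 fold change lay between -0.15 and 0.29, with limma adjusted p between 0.501 and 0.918. The sixth most abundant gene had 9061, 15751 and 10304 TPM at low CO2, against 11353, 14184 and 12429 TPM in the control, with low CO2 replicate 2 above all controls and replicates 1 and 3 below them.

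Without low CO2 replicate 2, the same limma test called 2136 of the same 13873 genes (15.4%), 389 higher (2.8%) and 1747 lower (12.6%). At least 2-fold changes numbered 239 higher and 1213 lower. An unadjusted p below 0.05 was found for 4501 genes. All 220 genes called with 6 libraries were among the 2136 in the same direction, but both fits share 5 libraries. The balance of directions depended strongly on scaling: with median-of-ratios scaling 660 went up and 1116 down, and with quantile normalization 930 and 971. Leaving out low CO2 replicate 1 as well gave 1300 and low CO2 replicate 3 as well 919, where 1 low CO2 library remained and was assumed to vary like the controls. It was 871 without control replicate 1 and 1262 without control replicate 3, and without control replicate 2 the higher genes numbered 673.

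Low CO2 replicate 2 shared 1206 of these 2136 changes (56.5%). A change counts as shared where low CO2 replicate 2, which the fit did not use, lay beyond all 3 controls on the side of the call. Of the 389 higher genes 218 (56.0%) were shared, against 36.2% of all genes tested in which this library lay above all controls. Of the 1747 lower genes 988 (56.6%) were shared, against 26.2% of all genes tested in which it lay below all controls. The controls served both for the calls and for the position of low CO2 replicate 2, so these shares are a description and have no test.

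The changes of the 2136 genes were smaller in low CO2 replicate 2 than in replicates 1 and 3, which made the calls. The median higher gene stood 1.08 (log2) above the control mean in low CO2 replicates 1 and 3 and 0.31 above it in replicate 2. The median lower gene stood at -1.28 in replicates 1 and 3 and at -0.34 in replicate 2. Gene by gene, the median part of the shift seen in replicate 2 was 28.2% for higher and 26.1% for lower genes. At least 50% of the shift was reached by 144 higher and 502 lower genes, and 74 higher and 486 lower genes were beyond the controls with less. Low CO2 replicate 2 lay within the range of the controls for 91 higher and 447 lower genes. It lay on the opposite side of all controls for 80 higher and 312 lower genes, or 20.6% and 17.9%. Among all genes tested 26.2% were below all controls in this library and 36.2% above.

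**Figure D3:**
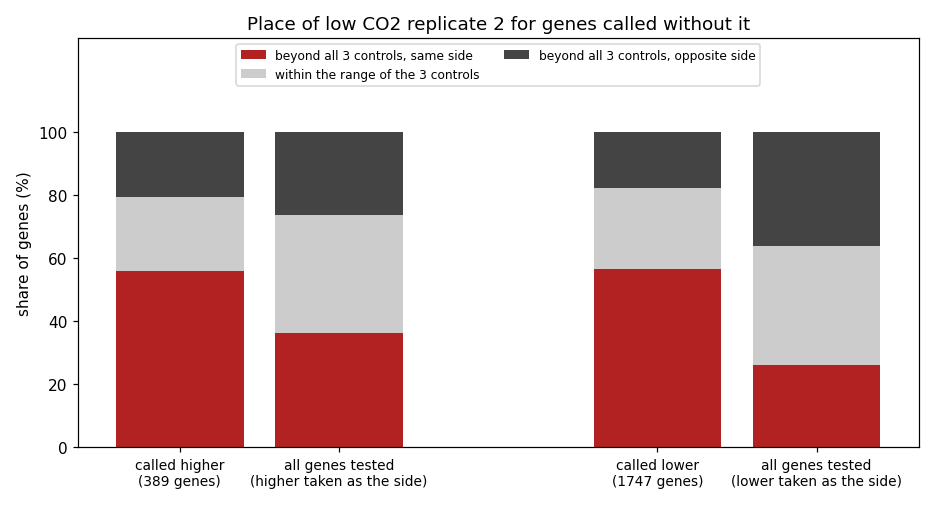
Share of genes (%, vertical axis) by the place of low CO2 replicate 2 relative to the 3 controls, for the 389 genes called higher and the 1747 called lower without it, each beside all 13873 genes tested. Red marks genes in which it lies beyond all controls on the side of the call (56.0% and 56.6%), grey those within the range of the controls, and dark grey those on the opposite side.

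The other low CO2 libraries were placed in the same way. When low CO2 replicate 1 was left out, it shared 81 of 86 lower genes and 12 of 14 higher ones, and over all genes tested it lay below all controls in 48.6% and above them in 18.6%. When low CO2 replicate 3 was left out, it shared 38 of 38 lower genes and 2 of 3 higher ones, with 52.1% of all genes below and 19.7% above all controls. In neither library did a called gene lie on the opposite side of the controls. The lists behind these counts differ in length from that for low CO2 replicate 2, so the shares were not compared by a test.

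The shared part was also counted by abundance. Low CO2 replicate 2 shared 59.5% of the lower calls at 1 to 10 TPM, 52.1% at 10 to 100 TPM and 67.3% at 100 to 1000 TPM, and 3 of 4 above that. Over all genes of these classes it lay below all controls in 23.7%, 27.4%, 35.9% and 49.3%. For higher calls the shares were 55%, 57.8% and 63.6%, and 3 of 7 in the highest class, where 37.5%, 35.7%, 30.9% and 19.9% of all genes in the classes lay above all controls. No test of the difference between classes was made.

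The largest changes among the 2136 that low CO2 replicate 2 did not share were looked at singly, 5 rises and 5 falls. They were taken by the size of the change in replicates 1 and 3 and not by the distance of replicate 2, and its departure is a description that the choice fixes in part. The largest such rise had 13.9, 0.07 and 34.5 TPM in low CO2 replicates 1, 2 and 3, against 0.18, 0 and 0.99 TPM in the controls. The second had 104, 2.21 and 120 TPM at low CO2, against 8.09, 3.98 and 12.4 TPM in the control, so that replicate 2 was below every control. The third had 31.9, 3.71 and 55.8 TPM at low CO2, against 3.66, 1.67 and 3.90 TPM in the control. In all 5 such rises low CO2 replicate 3 was the highest library, and the log2 fold changes without low CO2 replicate 2 were 2.96 to 4.11.

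Falls of this kind included abundant transcripts. The first had 7.04, 1268 and 36.7 TPM in low CO2 replicates 1, 2 and 3, against 805, 915 and 355 TPM in the controls. The third had 9.83, 592 and 18.8 TPM at low CO2, against 326, 645 and 259 TPM in the control. Here low CO2 replicate 2 was within or above the control range while replicates 1 and 3 had lost nearly all of the signal. Without low CO2 replicate 2 the log2 fold changes of these 5 falls were -5.20 to -3.96 (limma adjusted p 0.000903 to 0.00430), and with it they were -3.14 to -2.71 (limma adjusted p 0.207 to 0.375). Over these 10 rises and falls, low CO2 replicate 2 lay within the control range in 8 and beyond all controls on the opposite side in 2.

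The genes called in F. trinervia were next followed in the other species, whose libraries took no part in the calls. Of the 195 lower genes, 149 were also tested in F. robusta, where 91 (61.1%) were lower by its own limma test, against 43.3% of all genes tested in both species. In F. sonorensis 69 of 137 (50.4%) were lower, against 16.3%. In F. ramosissima 2 of 133 (1.5%) were lower, against 0.163%. The median log2 fold change of these genes was -2.01 in F. trinervia and -1.07 in F. robusta, where the median of all genes was -0.38. It was -1.03 in F. sonorensis and -0.55 in F. ramosissima, with medians over all genes of -0.18 and -0.01. In each of the 3 species the lower genes of F. trinervia thus had a lower median than all genes. Of the 195, 1 was called lower in all 4 species, 40 in F. trinervia and 2 others, 79 in F. trinervia and 1 other, and 75 in F. trinervia alone. The 75 include 19 that no other species tested. The opposite direction was called in at least 1 other species for 11. These counts were not made over all genes tested, of which 43.3% were lower in F. robusta but only 0.163% in F. ramosissima. They are therefore no measure of how far the response was shared.

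The higher genes called with all 6 libraries were followed in the same way. Of the 25, 18 were tested in F. robusta, where 2 (11.1%) were higher and 6 (33.3%) lower, against 7.99% higher and 43.3% lower among all genes. In F. sonorensis 17 were tested, with 1 (5.88%) higher and 1 lower, against 4.62% higher and 16.3% lower among all genes. In F. ramosissima 13 were tested and none was called in either direction by limma (unadjusted p below 0.05 in 0 higher and 1 lower), where 0.0814% of all genes were higher. The medians were 1.39 in F. trinervia and -0.46 in F. robusta over the 18 genes, 1.35 in F. trinervia and -0.06 in F. sonorensis over the 17, and 1.47 in F. trinervia and -0.21 in F. ramosissima over the 13. The medians of all genes in these species were -0.38, -0.18 and -0.01, so that of the higher genes was above it in F. sonorensis and below it in F. robusta and F. ramosissima, and these differences were not tested. Of the 25, 22 were called higher in no other species, including 3 that no other species tested, and 7 were called lower in at least 1. These counts were not made over all genes tested, of which few were higher in another species (7.99%, 4.62% and 0.0814%). In F. robusta 43.3% of all genes were lower. The counts are therefore no measure of how far the rises were particular to F. trinervia.

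Without low CO2 replicate 2, longer lists could be followed. Of the 389 higher genes, 300 were tested in F. robusta. There 100 (33.3%) were higher and 39 (13%) lower, against 7.99% higher and 43.3% lower among all genes. Their median log2 fold change was 0.82 in F. trinervia with all 6 libraries and 0.53 in F. robusta. In F. sonorensis 32 of 283 (11.3%) were higher and 35 (12.4%) lower, against 4.62% higher and 16.3% lower among all genes. In F. ramosissima 1 of 267 (0.375%) was higher, against 0.0814% of all genes. Of the 1747 lower genes, 1073 of 1412 (76.0%) were lower in F. robusta, 560 of 1345 (41.6%) in F. sonorensis and 6 of 1395 (0.43%) in F. ramosissima, against the same 43.3%, 16.3% and 0.163% of all genes. The lower genes thus had a share above that of all genes in each species with both lists, whereas the share of higher genes that were also higher in F. robusta was 11.1% for the list with all 6 libraries and 33.3% for the list without low CO2 replicate 2. These lists differ in length, and the difference was not tested.

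**Figure D4:**
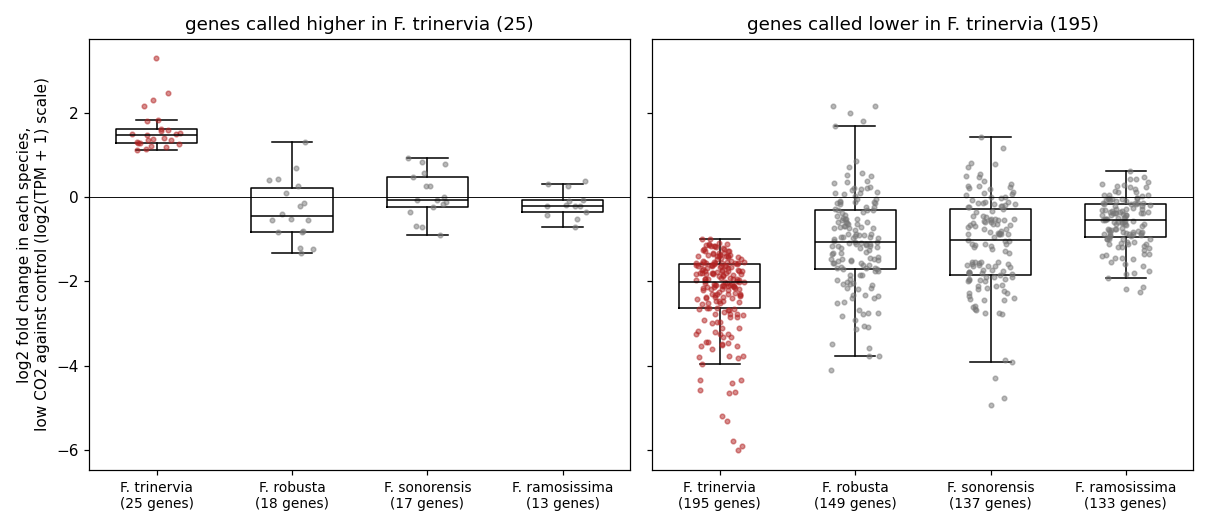
Log2 fold change of low CO2 against control on the log2(TPM + 1) scale (vertical axis) in each species for the 25 genes called higher (left) and the 195 called lower (right) in F. trinervia, 1 point per gene, with boxes from the lower to the upper quartile, the median as a line and whiskers to the farthest point within 1.5 box lengths. Numbers under each species count the genes tested there. The medians of the lower genes are below 0 in every species (-2.01, -1.07, -1.03 and -0.55), and those of the higher genes outside F. trinervia are -0.46, -0.06 and -0.21, where the medians of all genes are -0.38, -0.18 and -0.01.

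The difference between the responses was itself tested, 2 species at a time. The response of F. trinervia differed from that of F. robusta in 1763 of 11318 genes (15.6%). Of these, 1338 were higher in F. trinervia, meaning more increased or less decreased, and 425 were lower. Scaling moved this split to 884 and 784 (median-of-ratios) and 1029 and 815 (quantile). The number was 976 without control replicate 1 and 897 without control replicate 3 of F. trinervia. Among the genes called in F. trinervia, the difference was called for 13 of the 18 higher ones, each higher in F. trinervia, and for 62 of the 149 lower ones, of which 60 were lower in F. trinervia. The calls in F. trinervia rest on the same libraries as this difference.

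Against F. sonorensis the responses differed in 339 of 11235 genes (3.02%), 201 higher and 138 lower in F. trinervia. Scaling turned the majority, with 198 and 261 (median-of-ratios) and 214 and 257 (quantile). Leaving out low CO2 replicate 2 or 3 gave 972 and 138, and leaving out control replicate 1 or 3 gave 107 and 137. Against F. ramosissima the responses differed in 20 of 11059 genes (0.181%), 6 higher and 14 lower in F. trinervia, and quantile normalization gave 16 and 19. This number hung on single libraries throughout: it was 33, 413 and 4 without low CO2 replicates 1, 2 and 3 and 0, 78 and 7 without control replicates 1, 2 and 3. In the setting with 0 limma calls, 897 genes had an unadjusted p below 0.05.

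Gene08759, the largest rise of F. trinervia, had the opposite direction in F. robusta. It averaged 34.8 ± 16.7 TPM at low CO2 and 2.78 ± 2.09 TPM in the control of F. trinervia, 17.1 ± 2.74 and 31.9 ± 10.1 TPM in F. robusta, and 24.4 ± 1.15 and 25.4 ± 8.91 TPM in F. sonorensis (SD, n = 3 each). Levels between species carry any difference in reference and were not tested. The response in F. trinervia exceeded that in F. robusta by 4.12 ± 0.55 (log2, SE; limma adjusted p = 0.00164) and that in F. sonorensis by 3.28 ± 0.56 (limma adjusted p = 0.0136). In F. robusta the gene was lower at low CO2 by its own test (log2 fold change -0.83, limma adjusted p = 0.0254). Gene08759 was chosen for its rise in the same F. trinervia libraries, so its differences from other species are not independent of that choice.

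Gene24378 fell in 3 species, and most in F. trinervia. Its log2 fold change was -6.01 in F. trinervia, -1.33 in F. robusta (limma adjusted p = 0.0489), -1.90 in F. sonorensis (limma adjusted p = 0.00392) and -1.35 in F. ramosissima (limma adjusted p = 0.367). The response in F. trinervia minus that in the other species was -4.68 ± 0.58 for F. robusta, -4.11 ± 0.42 for F. sonorensis and -4.66 ± 0.62 for F. ramosissima (log2, SE; limma adjusted p = 0.00116, 0.00121 and 0.0235). Gene07148 went opposite ways in the C4 and the C3 species. It averaged 3.07 ± 3.67 TPM at low CO2 and 188 ± 35.6 TPM in the control of F. trinervia, against 32.5 ± 8.11 TPM at low CO2 and 7.20 ± 4.78 TPM in the control of F. robusta (SD, n = 3 each), where it was higher by its own test (log2 fold change 2.15, limma adjusted p = 0.0038). The difference between these responses was -8.05 ± 0.75 (log2, SE; limma adjusted p = 0.000400), and the gene was at 0 in all libraries of F. sonorensis and F. ramosissima. Gene24378 and Gene07148 were chosen for their falls in the same F. trinervia libraries, so their differences also depend on that choice.

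The called genes were also grouped by the number of other species in which the row reached the minimum of 1 TPM. How species share a row was not given. A gene that is not expressed in a species therefore cannot be told apart from a row without a match there. Of 688 genes that reached the minimum in none of the other species, 3 were higher and 19 lower (3.20%). The same share was 2.16% of 1621 genes tested in 1 other species, 2.11% of 2701 in 2 others and 1.20% of 8863 in all 3. The median residual SD also fell along these classes, at 0.37, 0.34, 0.31 and 0.28 (log2). Its part in the shares was not tested.

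Finally, the genes that the other species called were viewed in each F. trinervia library, which shows how low CO2 replicate 2 departs from replicates 1 and 3. The same 3 controls served for all of these values, which are differences from the control mean on the log2 scale and have no test. For the 904 genes higher at low CO2 in F. robusta, the median difference was 0.23 in low CO2 replicate 1 and 0.10 in replicate 3, against medians over all genes of -0.19 and -0.23. In low CO2 replicate 2 it was -0.21, against 0.07 over all genes. For the 4906 genes lower in F. robusta, the medians were -0.40, 0.15 and -0.37 in low CO2 replicates 1, 2 and 3, against -0.19, 0.07 and -0.23 over all genes. Low CO2 replicates 1 and 3 thus lay on the side of F. robusta for both sets, and low CO2 replicate 2 on the other side. Relative to the median of all genes, replicate 2 stood at -0.28 for the higher set but only at 0.08 for the lower set. On that measure the directions were the same under both other scalings. For the higher set the values were 0.43, -0.28 and 0.34 with median-of-ratios and 0.39, -0.27 and 0.32 with quantile normalization. For the lower set they were -0.21, 0.07 and -0.13 with median-of-ratios and -0.20, 0.08 and -0.13 with quantile normalization.

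The sets of F. sonorensis gave another picture. For its 519 higher genes the medians were 0.13, 0.11 and 0.07 in low CO2 replicates 1, 2 and 3, against -0.19, 0.07 and -0.23 over all genes. For its 1828 lower genes they were -0.51, -0.10 and -0.48, so low CO2 replicate 2 was on the same side as the other low CO2 libraries but closer to the control mean. Low CO2 replicate 2 was below all controls in 40.5% of these 1828 genes, against 26.2% of all genes. For the 519 higher genes it was above all controls in 37.8%, close to the 36.2% of all genes. It was below all controls in 20.6% of the 4906 genes lower in F. robusta, and above all controls in 16.2% of the 904 higher ones, against 36.2% of all genes.

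**Figure D5:**
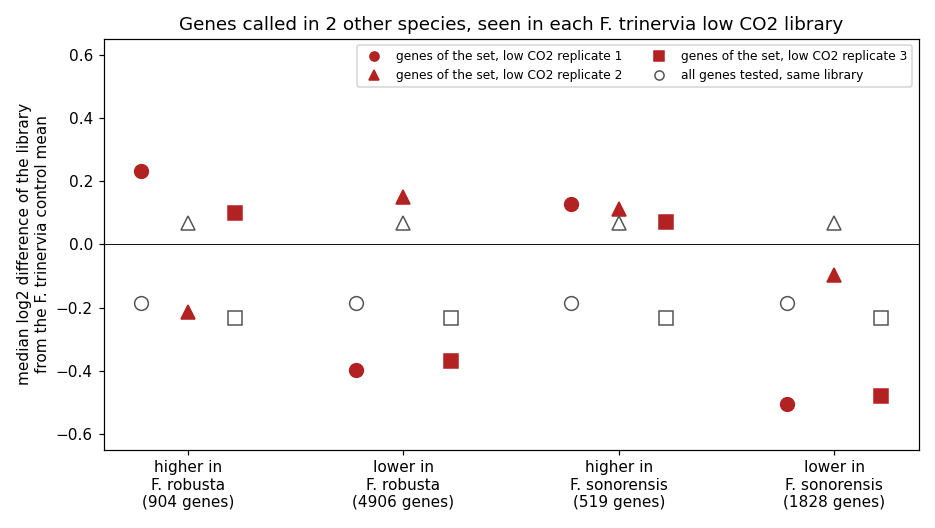
Median log2 difference of each F. trinervia low CO2 library from the F. trinervia control mean (vertical axis) for the genes called higher or lower at low CO2 in F. robusta and in F. sonorensis (filled red symbols), beside the median of all 13873 genes in the same library (open symbols). Circles, triangles and squares are low CO2 replicates 1, 2 and 3. For the F. robusta sets the triangles lie on the other side of 0 from the circles and squares (for example -0.21 against 0.23 and 0.10).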

How the data were processed

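Leaf RNA of F. trinervia and 3 other Flaveria species was sequenced as Illumina read pairs of 150 bp. The authors deposited 1 table of TPM (abundance corrected for gene length and scaled to the library) for 24 libraries, and all of its columns were matched to libraries by the labels. The submitters' processing notes name RSEM and edgeR. The aligner, the reference sequences, all versions and how species share a row were not given in the sources used here. Since TPM is relative, other genes lose TPM where abundant transcripts gain, and it holds no counts, so no count test and no counting error are given.

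For the 6 F. trinervia libraries, genes with a mean of at least 1 TPM were tested on log2(TPM + 1), which understates changes of low genes, by limma 3.58.1 in R 4.3.3 (trend in the prior spread, Benjamini-Hochberg adjustment, threshold 0.05), with and without low CO2 replicate 2. Other species were tested alone in the same way, and differences between responses by a contrast over 12 libraries of 2 species. Shares of TPM were compared by exact permutation tests. Scripts were tested on simulated data. The genes described singly were the 10 largest rises and 10 largest falls among called genes with groups apart, the 10 most abundant genes, and the 5 largest rises and 5 largest falls that low CO2 replicate 2 did not share. Only the first 2 of each direction are printed by number. The genes, lists and tests were chosen with earlier results of these data known.

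Alternatives were a pseudocount of 0.1, no filter, a minimum mean of 5 TPM, quantile normalization, median-of-ratios scaling, a robust prior spread, a prior spread without trend, 1 spread shared by all 24 libraries, a separate spread for each species, the replicate number as a block, and leaving out each F. trinervia library. Figures were made in Python 3.11.15 (matplotlib 3.10.9).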

Additional observations from a re-analysis of the deposited data

Results flagged for a closer look

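The results below were singled out because the response of F. trinervia to low CO2 differed from that of another species in a limma test of the difference itself. They are given as values only. The genes named had first been chosen for the size of their change in the same F. trinervia libraries. Their differences from other species are therefore not independent of that choice.

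The number of genes whose response differed was 1763 against F. robusta, 339 against F. sonorensis and 20 against F. ramosissima. For Gene08759 the response of F. trinervia exceeded that of F. robusta by 4.12 and that of F. sonorensis by 3.28 (log2). For Gene24378 the difference was -4.68 for F. robusta, -4.11 for F. sonorensis and -4.66 for F. ramosissima. For Gene07148 it was -8.05 for F. robusta. With 3 libraries per group, no test for single outlying libraries was made.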

How the results depend on the processing

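Against the 220 genes called with all 6 libraries, the number stayed within 1.5 times under 7 alternatives. It was lower than that under 6 and higher under 2. It was 139 (11 higher, 128 lower) at a minimum mean of 5 TPM, where fewer genes were tested, and 1861 (419 higher, 1442 lower) with 1 spread shared by all 24 libraries. Quantile normalization gave 39 higher and 125 lower calls and a median log2 fold change of all genes tested of 0.064. Leaving out 1 library gave 16 to 2136 calls, 0 to 389 higher (0 without control replicate 1, where 323 higher genes had an unadjusted limma p below 0.05) and 16 to 1747 lower. Between libraries of the same replicate number, deviations had correlations of -0.11, 0.08 and 0.14. With 3 libraries per group these cannot settle whether the replicate numbers pair the libraries. With the replicate number as a replicate block 23 genes were called by limma, 0 higher (606 higher at an unadjusted p below 0.05) and 23 lower.

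Without low CO2 replicate 2, the higher genes numbered 206 at a minimum mean of 5 TPM, 660 under median-of-ratios scaling and 930 under quantile normalization, and the lower genes 1116 and 971 under these scalings. Leaving out a further library, chosen after seeing the data, gave 871 to 2787 calls, 103 to 673 higher and 760 to 2114 lower. The part shared by low CO2 replicate 2 was 54.3% to 59.9% under the alternatives. The matching share over all genes tested was not computed for them, so the excess over it is not known there.

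For the difference from F. robusta, no filter gave 2925 genes, the replicate block 1533, and leaving out a library 897 to 2255. For F. sonorensis no filter gave 928, separate spreads 549, the replicate block 189, and leaving out a library 107 to 972. For F. ramosissima the numbers were 144 with no filter, 12 at a minimum mean of 5 TPM, 40 with median-of-ratios scaling, 35 with quantile normalization, 97 with separate spreads, 46 with the replicate block, and 0 to 413 on leaving out a library. The cause of these changes was not tested. The share of TPM in abundant genes was 3.13 to 7.79 percentage points higher at low CO2 on leaving out a library. TPM holds no depth, so what depth limits could not be assessed.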
